A study of Mus musculus with 3 samples.

Results

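The 10 genes described here are 6 small leucine-rich proteoglycans, Dcn, Lum, Bgn, Fmod, Ogn and Aspn, and 4 lysyl oxidases, Lox, Loxl1, Loxl2 and Loxl3. They were taken as a list of gene symbols, by a rule that names no read count, from 24421 genes counted. The list was chosen with earlier results of these data known. All 10 were detected in every library. Expression was measured by RNA-Seq in 3 libraries, 1 per condition. All of them came from EL16.7, an undifferentiated female mouse embryonic stem (ES) cell line of the background F2:129S1/CastEiJx 129S1. In each condition the cells were grown with LIF on γ-irradiated mouse embryonic fibroblasts (MEFs) from Tg(DR4)1Jae/J mice, transduced with shRNA lentivirus and kept in 2 μg/ml puromycin for 2 days. The control library is wild type and received a control shRNA, while KD-1 and KD-2 carry the genotype label NUP153 knockdown and received shRNA-1 and shRNA-2, respectively. NUP153 is a nucleoporin of the nuclear basket, and the comparisons address how expression differs when it is depleted. Every library therefore holds RNA of virus-treated, drug-selected cells taken from a culture with feeder fibroblasts, and the methods name no step that separates feeders from ES cells before RNA extraction.

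Small leucine-rich proteoglycans are secreted proteins with a short, curved core of leucine-rich repeats that binds collagen and sets how collagen fibrils grow and pack. Lysyl oxidases are copper-dependent enzymes that oxidise lysine residues of collagen and elastin, which starts the covalent crosslinks of the fibres. Both families are known mainly from fibroblasts and other mesenchymal cells of connective tissue, and not as part of the pluripotency program of ES cells.

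Reads on genes numbered between 69839336 and 85258834 per library, so counting error is small for most of the genes below. With 1 library per condition there is no spread between replicates, and a difference between KD-1 or KD-2 and the control compares these libraries. Intervals in brackets are 95% exact intervals of a ratio of 2 counts. They cover counting error only, and reads without molecular identifiers are not independent molecules. The targeted gene, Nup153 (chr13:46679905-46727940), had 27870 reads in control, 16451 with KD-1 and 11126 with KD-2, which after scaling is −0.99 on the log2 scale for KD-1 and −1.43 for KD-2. Reads lay on Y-linked genes in all 3 libraries of this line labelled female. Their sum was 6360 in control, 5402 with KD-1 and 10008 with KD-2, on Ddx3y, Uty, Kdm5d, Eif2s3y, Zfy1 and Usp9y, with Sry and Zfy2 at 0 throughout.

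The proteoglycan genes lie in part in clusters on the chromosome, so the sequence just before their start sites is shown for the cluster of Aspn, Omd and Ogn on chromosome 13 and, for contrast, for Bgn. Omd, osteomodulin, is a relative of the same family and not one of the 10 genes. Of the 10 genes, 4 had a start-site sequence in the RefSeq table used here (GRCm38.p6). Each runs from 250 bases before to 50 bases after the start, all are on the plus strand, and capitals mark matches to any of 6 motifs, searched on both strands. Aspn lies at chr13:49544193-49544492, Omd at chr13:49582212-49582511, Ogn at chr13:49607765-49608064 and Bgn at chrX:73483351-73483650.
Aspn: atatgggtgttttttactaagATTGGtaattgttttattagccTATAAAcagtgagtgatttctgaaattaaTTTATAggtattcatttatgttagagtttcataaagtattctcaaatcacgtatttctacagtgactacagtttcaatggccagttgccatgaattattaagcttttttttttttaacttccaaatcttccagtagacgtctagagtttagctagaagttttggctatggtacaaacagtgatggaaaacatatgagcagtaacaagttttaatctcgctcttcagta
Omd: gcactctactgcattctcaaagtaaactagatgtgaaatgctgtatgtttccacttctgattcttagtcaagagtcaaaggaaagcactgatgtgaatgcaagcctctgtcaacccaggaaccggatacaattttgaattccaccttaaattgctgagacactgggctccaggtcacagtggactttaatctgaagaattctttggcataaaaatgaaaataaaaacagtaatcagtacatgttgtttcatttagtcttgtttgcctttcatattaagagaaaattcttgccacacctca
Ogn: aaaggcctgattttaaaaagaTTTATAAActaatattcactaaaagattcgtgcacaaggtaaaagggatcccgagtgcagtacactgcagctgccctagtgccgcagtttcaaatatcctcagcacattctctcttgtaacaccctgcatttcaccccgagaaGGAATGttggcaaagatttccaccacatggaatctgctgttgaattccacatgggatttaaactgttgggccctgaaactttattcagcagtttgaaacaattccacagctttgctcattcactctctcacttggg
Bgn: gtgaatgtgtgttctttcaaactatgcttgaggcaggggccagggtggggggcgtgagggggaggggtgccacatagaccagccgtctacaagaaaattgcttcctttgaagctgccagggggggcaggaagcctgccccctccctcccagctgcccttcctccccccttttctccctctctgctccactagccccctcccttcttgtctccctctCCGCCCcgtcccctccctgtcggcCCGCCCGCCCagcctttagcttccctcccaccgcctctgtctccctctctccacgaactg

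The sequences of Aspn and Ogn each held TATAAA once on the plus strand, at −207 and −227 from the start, and once on the minus strand, at −178 and −229. The pair of matches in Ogn overlap each other. TATAAA was in 13.6% of 32851 start-site sequences of this length. Aspn also held CCAAT at −229 (37.4% of all sequences) and Ogn held CATTCC, the letters bound by TEAD factors, at −86 (14.7%), both on the minus strand. Bgn held GGGCGG, a GC box, 3 times on the minus strand, at −34, −10 and −6, of which the last 2 overlap. This motif was in 35.7% of all sequences. Omd held none of the 6 motifs, and Fmod (chr1:134037004-134037303, not printed) held CCAAT alone, at 35 bases after the start. TGANTCA (7.81% of all sequences) and CAGACA (21.0%) matched none of the 4 genes or Omd. The GC content was 31.0% in Aspn, 37.7% in Omd, 42.3% in Ogn, 51.0% in Fmod and 63.7% in Bgn, beside a median of 52.7% over all sequences.

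In KD-1 most of the 10 genes were lower than in control, and in KD-2 most were higher. Genes were counted as lower or higher past a fold change of 1.5, among the 16670 genes that averaged 10 reads or more over the libraries, all 10 included. By this rule KD-1 had 7 of the 10 lower and 0 higher, beside 5.62% lower and 8.63% higher of all genes tested. For KD-2, 9 of the 10 were higher and 0 were lower, where 17.1% of all genes were higher and 10.2% were lower. The median log2 fold change of the 10 genes was −1.12 for KD-1 and 0.80 for KD-2, and that of all genes tested was 0.02 and −0.02. The comparisons share the control library, so a low or high control value enters both. The direct comparison of KD-1 to KD-2, which does not use the control, gave 9 of 10 genes lower in KD-1, where 16.1% of all genes were lower and 13.9% higher, with a median of −2.17 for the 10 genes and 0.12 for all genes. In bulk RNA, fewer cells of a type and less RNA per cell cannot be told apart, and this holds for each value below.

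Dcn and Lum are neighbours on chromosome 10 and code for decorin and lumican, proteoglycans that coat collagen fibrils and limit their width. Dcn (chr10:97479609-97518143) had 1594 reads in control, 1199 with KD-1 and 2994 with KD-2, or 3.91, 2.51 and 6.81 scaled RPKM, a level per length of exon and per read of the scaled library. KD-1 held the lowest and KD-2 the highest level. The level was 1.56-fold lower in KD-1 (log2 fold change −0.64 [−0.75, −0.53]) and 1.74-fold higher in KD-2 (0.80 [0.71, 0.89]), and the interval in KD-1 holds values on both sides of the 1.5-fold threshold.

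Lum (chr10:97565128-97572703) had 4339 reads in control, 1871 with KD-1 and 8174 with KD-2, or 25.4, 9.33 and 44.4 scaled RPKM. The libraries were in the same order as for Dcn but further apart. Lum was 2.72-fold lower in KD-1 (−1.44 [−1.52, −1.36]) and 1.75-fold higher in KD-2 (0.81 [0.75, 0.86]). For 1 read of Dcn there were 2.72 reads of Lum in control, 1.56 with KD-1 and 2.73 with KD-2, so the ratio of the neighbouring genes differed in KD-1 and was close to that of control in KD-2. Of the relatives of the same cluster, Epyc had 53, 29 and 77 reads in control, KD-1 and KD-2, and Kera, with 10, 0 and 12 reads, was too low to be tested.

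Bgn codes for biglycan, the closest relative of decorin, and lies on the X chromosome (chrX:73483602-73495933). It had 7882 reads in control, 9368 with KD-1 and 14703 with KD-2, or 18.5, 18.8 and 32.0 scaled RPKM. Control and KD-1 were alike within counting error, and only KD-2 stood apart. The log2 fold change was 0.02 [−0.02, 0.06] in KD-1, and its sign depends on the scaling (−0.05 to 0.03), whereas Bgn was 1.73-fold higher in KD-2 (0.79 [0.75, 0.83]). Bgn was the proteoglycan with no difference in KD-1 past the threshold. For each read of Lum there were 1.82 reads of Bgn in control, 5.01 with KD-1 and 1.80 with KD-2.

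Fmod, which codes for fibromodulin, a proteoglycan that binds collagen beside lumican and also binds lysyl oxidase, was the gene with the lowest level. Fmod (chr1:134037254-134048277) had 72 reads in control, 33 with KD-1 and 151 with KD-2, or 0.312, 0.122 and 0.607 scaled RPKM. Its counting intervals are correspondingly wide. The level was 2.53-fold lower in KD-1 (−1.34 [−1.99, −0.74]) and 1.94-fold higher in KD-2 (0.96 [0.55, 1.39]), and the KD-2 interval reaches below the 1.5-fold threshold. The nearest counted gene on one side is the relative Prelp, with 116, 39 and 260 reads (log2 fold changes −1.79 and 1.05). On the other side lies Btg2, with 3748, 4551 and 6458 reads (0.05 and 0.68).

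Ogn and Aspn code for osteoglycin (mimecan) and asporin, of which asporin is known to bind TGF-β. Ogn (chr13:49608046-49624501) had 3403 reads in control, 1157 with KD-1 and 6096 with KD-2, or 19.0, 5.51 and 31.6 scaled RPKM. KD-1 was far below the other 2 libraries. Ogn was 3.44-fold lower in KD-1 (−1.78 [−1.88, −1.69]), the largest difference below control of the 10 genes under each scaling tried, and 1.66-fold higher in KD-2 (0.73 [0.67, 0.80]).

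Aspn (chr13:49544443-49567565) had 1249 reads in control, 513 with KD-1 and 2237 with KD-2, or 7.59, 2.66 and 12.6 scaled RPKM. The order of the libraries was again KD-1, control, KD-2. It was 2.85-fold lower in KD-1 (−1.51 [−1.66, −1.36]) and 1.66-fold higher in KD-2 (0.73 [0.63, 0.83]). Aspn shares 7 bp of exon with Cenpp, a centromere protein gene on the opposite strand, and which strand was counted is not given in the sources used here.

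Aspn, Omd and Ogn stand in a row with Ecm2, another gene of leucine-rich repeats, and all 4 lie inside Cenpp (chr13:49464023-49652785). Omd lies 14897 bp after Aspn and 15224 bp before Ogn. It had 10432 reads in control, 13915 with KD-1 and 8738 with KD-2, with log2 fold changes of 0.19 and −0.36. Ecm2 had 202, 279 and 200 reads (0.24 and −0.12), and Cenpp itself 1999, 1545 and 1349 reads (−0.60 and −0.67). Omd, between Aspn and Ogn, thus had values of the opposite sign to theirs in both knockdowns, and no value of Omd or Ecm2 was past the 1.5-fold threshold. Cenpp was lower, just past it, in both knockdowns with upper-quartile scaling.

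**Figure D1:**
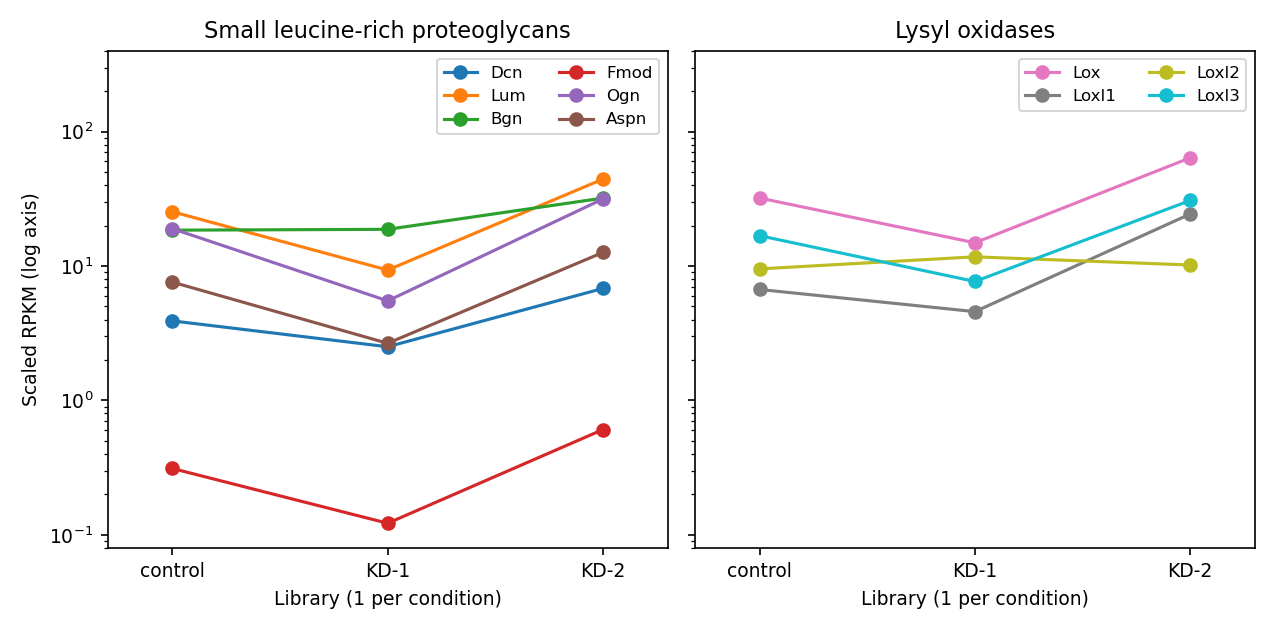
Scaled RPKM (log axis) of the 6 proteoglycan genes, left, and the 4 lysyl oxidase genes, right, in the 1 library of each condition; lines join the values of a gene and are no time course. Of the 10 genes, 8 have their lowest point in KD-1 and 9 their highest in KD-2, whereas Loxl2 lies between 9.52 and 11.7 in all libraries.

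Lox codes for the founding lysyl oxidase, which crosslinks fibrillar collagen and elastin. Lox (chr18:52516067-52529867) had 10711 reads in control, 5828 with KD-1 and 22974 with KD-2, or 32.1, 14.9 and 63.9 scaled RPKM. It held the highest level of the 10 genes in control and KD-2. Lox was 2.15-fold lower in KD-1 (−1.11 [−1.15, −1.06]) and 1.99-fold higher in KD-2 (0.99 [0.96, 1.03]).

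Loxl1 codes for the paralog that is needed for the renewal of elastic fibres. Loxl1 (chr9:58287738-58313186) had 1542 reads in control, 1236 with KD-1 and 6052 with KD-2, or 6.69, 4.58 and 24.4 scaled RPKM. KD-1 was lowest, and KD-2 lay further above control than KD-1 lay below it. The level was 1.46-fold lower in KD-1 (−0.55 [−0.66, −0.44]), short of the threshold, and 3.64-fold higher in KD-2 (1.87 [1.78, 1.95]). The KD-2 value exceeded that of the other 9 genes under each scaling tried and of 99.5% of all genes tested.

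Loxl2 codes for a lysyl oxidase with scavenger receptor domains that crosslinks collagen IV of basement membranes. Loxl2 (chr14:69609068-69695834) had 3597 reads in control, 5183 with KD-1 and 4140 with KD-2, or 9.52, 11.7 and 10.2 scaled RPKM. These were the most even values of the 10 genes. The log2 fold change was 0.30 [0.24, 0.36] for KD-1 and 0.10 [0.03, 0.16] for KD-2, both above 0 by more than counting error and neither past the threshold.

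Loxl3, which codes for a close relative of Loxl2 that is needed in the development of palate and spine, went with Lox instead. Loxl3 (chr6:83034173-83052562) had 5412 reads in control, 2893 with KD-1 and 10653 with KD-2, or 16.8, 7.68 and 30.7 scaled RPKM. KD-1 was lowest and KD-2 highest. It was 2.19-fold lower in KD-1 (−1.13 [−1.20, −1.07]) and 1.83-fold higher in KD-2 (0.87 [0.82, 0.92]). Loxl3 shares 535 bp of exon with Htra2 on the opposite strand, which had 4987 reads over the 3 libraries. Its neighbour Dok1, 702 bp away, had 1378, 968 and 2500 reads (−0.74 and 0.75). Aup1, 1959 bp away on the other side, had 883, 1118 and 1222 reads (0.11 and 0.36).

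The nearest counted genes of the remaining members, where high enough to be tested, were mostly inside the threshold. Srfbp1, beside Lox, was at 0.01 for KD-1 and −0.54 for KD-2. Stoml1, beside Loxl1, was at −0.14 and 0.19, and R3hcc1, beside Loxl2, at 0.05 and 0.07. Nol8, on the far side of Ogn, was at −0.03 and −0.57. Haus7, beside Bgn, was at −0.01 and −0.55, while Atp2b3, on its other side, was at 1.07 and 0.07 with only 31, 77 and 35 reads.

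**Figure D2:**
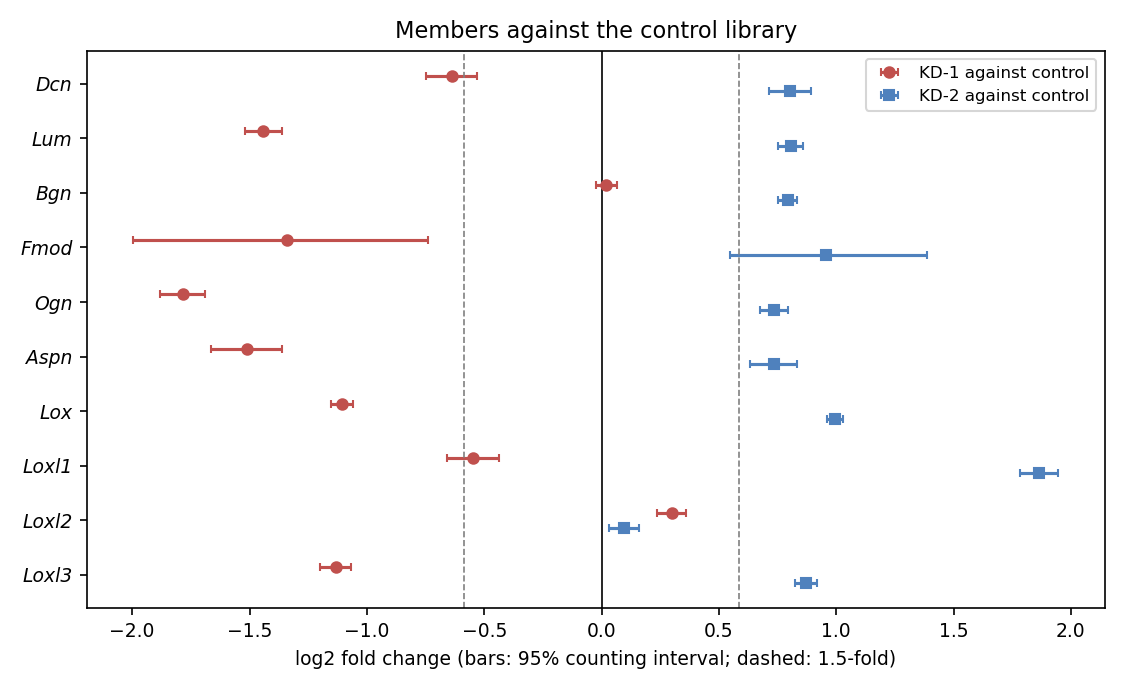
Log2 fold change of each gene in KD-1 (circles) and KD-2 (squares) against the control library; bars are 95% counting intervals and dashed lines mark a fold change of 1.5. The KD-1 points of 7 genes lie beyond the lower line and the KD-2 points of 9 genes beyond the upper one, with Loxl2 inside both lines.

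Counted by family, 5 of 6 proteoglycan genes and 2 of 4 lysyl oxidase genes were lower with KD-1, and the numbers higher with KD-2 were 6 of 6 and 3 of 4. The median log2 fold change was −1.39 and 0.80 for the proteoglycans and −0.83 and 0.93 for the lysyl oxidases, in KD-1 and KD-2, respectively. At a stricter fold change of 2, 6 of the 10 genes were lower in KD-1 (1.53% of all genes), and 1, Loxl1, was higher in KD-2 (5.42% of all genes). In the direct comparison of KD-1 to KD-2 the 9 genes past the 1.5-fold threshold were between 1.71-fold lower, for Bgn, and 5.73-fold lower, for Ogn. Loxl2 was the exception, with 0.20 [0.14, 0.26] on the log2 scale, the highest of 0.04 to 0.20 over the scalings and pseudocounts tried.

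**Figure D3:**
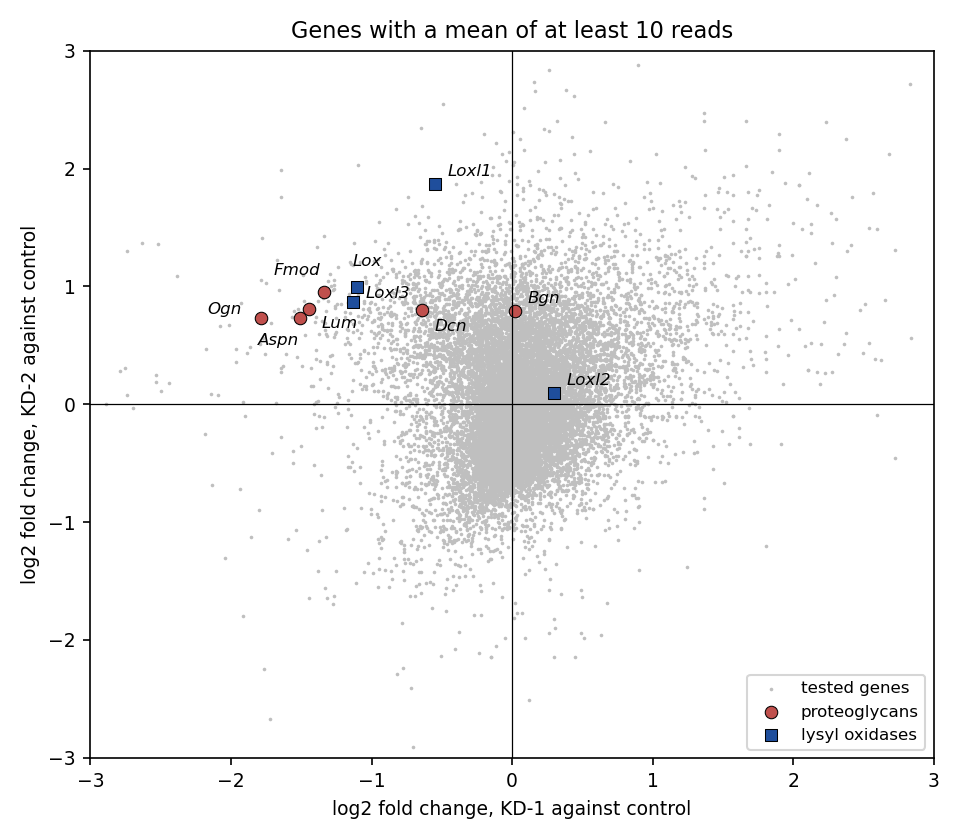
Log2 fold change in KD-1 (x axis) and in KD-2 (y axis) against the same control library, for genes that averaged 10 reads or more (grey; 22 of 16670 lie outside the axes), with the proteoglycans as red circles and the lysyl oxidases as blue squares. Of the 10 genes, 8 lie left of 0 and above 0, Bgn lies on the line of 0 in KD-1, and Loxl2 lies near the origin.

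The knockdown libraries were also compared to control as a group, the only comparison of the design with a residual degree of freedom (1), whose spread comes from KD-1 and KD-2 alone. No member of either family was called by edgeR's quasi-likelihood test with Benjamini-Hochberg adjustment, with 0 of 10 genes called and an adjusted p of 1.00 for each, beside 4 of 21164 genes called in all (0.0189%). At an unadjusted edgeR p under 0.05 were 293 of all genes and 1 of the 10, Loxl1, with a log2 fold change of 1.15. Its unadjusted p by edgeR's quasi-likelihood test was 0.00813. DESeq2's Wald test called 0 of the 10 genes, with 0 at an unadjusted p under 0.05, and 2 of all genes (0.00945%). As KD-1 and KD-2 lay on opposite sides of control for 8 of the 10 genes, the mean of the knockdowns describes neither library.

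The proteoglycan genes differed among themselves in KD-1, whereas in KD-2 no ratio between 2 of them differed from control beyond counting error. This was read from ratios of reads between 2 genes of the same library, which do not depend on the scaling. Of the 15 pairs of proteoglycan genes, the ratio in KD-2 differed from that in control by less than counting error in 15 (95% interval by normal approximation on the log scale), with a median absolute log2 difference of 0.0686 and a maximum of 0.228. In KD-1 the interval left out 0 for 11 of the 15 pairs, with a median of 0.715 and a maximum of 1.81, for Bgn and Ogn. Pairs with Fmod have wide intervals and could not show a small difference. For Fmod with Ogn in KD-2 it was 0.23 [−0.18, 0.64], which reaches past 1.5-fold.

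As a share of the summed scaled RPKM of the 6 proteoglycans, Lum held 34.0% in control, 24.0% with KD-1 and 34.7% with KD-2. Bgn held 24.8%, 48.2% and 25.0%, and Ogn 25.4%, 14.2% and 24.7%. Among these 6 genes, Lum thus had the highest level in control and KD-2, and Bgn in KD-1. Their relative Omd was above both in every library, at 66.4, 75.6 and 51.6 scaled RPKM in the order control, KD-1, KD-2. The summed level of the family was 74.6 scaled RPKM in control, 38.9 with KD-1 and 128 with KD-2.

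Proportions among the lysyl oxidases differed in both knockdowns. The interval of the ratio left out 0 for 5 of 6 pairs in KD-1, all but Lox with Loxl3 (log2 difference 0.03), and for 6 of 6 in KD-2. For 1 read of Lox there was 0.336 of a read of Loxl2 in control, 0.889 with KD-1 and 0.180 with KD-2. Loxl1 per read of Lox was 0.144, 0.212 and 0.263, lowest in control, and Loxl3 per read of Lox was 0.505, 0.496 and 0.464. Lox held 49.3% of the summed scaled RPKM of the 4 enzymes in control, 38.3% with KD-1 and 49.4% with KD-2, while Loxl2 held 14.6%, 30.1% and 7.88% and Loxl1 10.3%, 11.8% and 18.9%. The summed level was 65.1 scaled RPKM in control, 38.9 with KD-1 and 129 with KD-2.

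**Figure D4:**
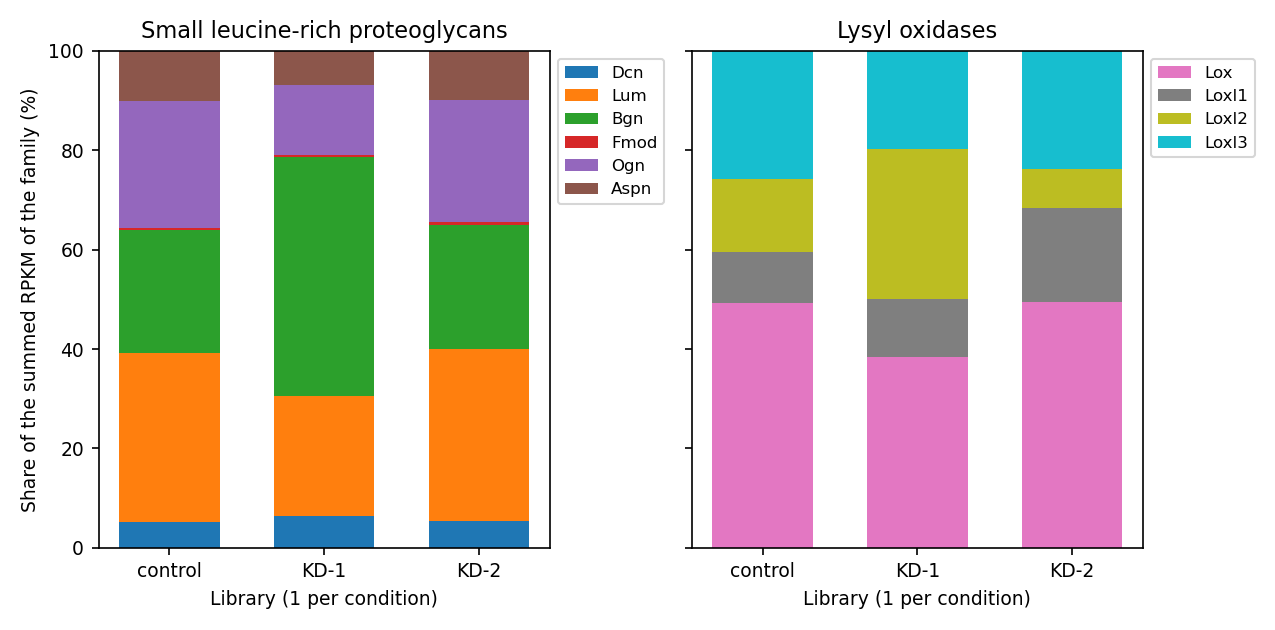
Share of each gene (%) in the summed scaled RPKM of its family, for the 6 proteoglycans, left, and the 4 lysyl oxidases, right, in the 1 library of each condition. Control and KD-2 look alike among the proteoglycans, whereas Bgn takes 48.2% in KD-1; among the lysyl oxidases, Loxl2 is widest in KD-1 and Loxl1 in KD-2.

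Ranked by scaled RPKM, the order in control was Lox, Lum, Ogn, Bgn, Loxl3, Loxl2, Aspn, Loxl1, Dcn and Fmod, in which Ogn and Bgn did not differ beyond counting error (ratio 1.03, 95% interval 0.985 to 1.07). In KD-1 the order was Bgn, Lox, Loxl2, Lum, Loxl3, Ogn, Loxl1, Aspn, Dcn and Fmod, with Aspn and Dcn not separated (1.06, 0.955 to 1.18). In KD-2 it was Lox, Lum, Bgn, Ogn, Loxl3, Loxl1, Aspn, Loxl2, Dcn and Fmod, where Bgn and Ogn (1.01, 0.985 to 1.05) and Ogn and Loxl3 (1.03, 0.995 to 1.06) were not separated. Fmod was last in each library. Loxl2 moved from the sixth place in control to the third in KD-1 and the eighth in KD-2, with little difference in its own level.

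Of 18 listed fibroblast markers 17 were tested and none was at 0 in all libraries. In KD-1, 4 were lower (5.62% of all genes), 1 was higher (8.63%) and 12 were neither, with a median of −0.27. In KD-2, 13 were higher (17.1% of all genes), 1 was lower (10.2%) and 3 were neither, with a median of 0.84. Their summed scaled CPM were 1017 in control, 710 with KD-1 and 1446 with KD-2, to which S100a4, also expressed outside fibroblasts, contributed most, with 44210, 32429 and 60786 reads. Pdgfrb, a receptor of mesenchymal cells, had 2558, 1688 and 5829 reads (−0.83 and 1.08), and Prrx1, a mesenchymal transcription factor, 3865, 2485 and 7066 (−0.87 and 0.76). Thy1, a surface marker of fibroblasts, had 1460, 1264 and 2035 reads (−0.44 and 0.37). The marker higher in KD-1 was Meox1, at low counts of 14, 30 and 37 reads (0.85 and 1.27), and the one lower in KD-2 was Lrrc15, with 158, 183 and 93 reads (−0.02 and −0.87).

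The Y-linked genes, which a female line lacks, summed to 91.0 scaled CPM in control, 66.0 with KD-1 and 133 with KD-2, a log2 ratio of −0.46 and 0.55. Ddx3y, the most abundant of them, had 3662, 2853 and 5792 reads. Of smooth muscle markers 5 of 7 were lower in KD-1 and 5 of 7 higher in KD-2, beside 5.62% and 17.1% of all genes. Of the 15 ES cell markers, 0 were lower and 1 was higher in KD-1, with a median of 0.12. In KD-2, 4 were lower and 1 was higher, with a median of −0.29, beside 10.2% lower and 17.1% higher of all genes. Their summed scaled CPM gave a log2 ratio of 0.11 for KD-1 and −0.46 for KD-2. Before scaling for depth, Pou5f1 had 35405, 45092 and 32962 reads and Nanog 44622, 61737 and 39339. The part of the fibroblast content of the libraries in the values of the 10 genes was not tested.

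Expression was also set per read of a marker list, which moves every gene by the same amount within a comparison, so each count is given with the share of all 16670 tested genes on that scale. Per read of the Y-linked genes, the median of all genes was 0.48 for KD-1 and −0.57 for KD-2 on the log2 scale. In KD-1, Ogn was at −1.32, Aspn at −1.05, Lum at −0.98, Fmod at −0.89, Loxl3 at −0.67 and Lox at −0.64, and these 6 genes were lower past 1.5-fold, beside 1.37% of all genes. Dcn (−0.18), Loxl1 (−0.08) and Bgn (0.48) were short of it, and Loxl2 (0.76) was past it on the higher side, beside 36.4% of all genes. In KD-2, Loxl1 alone was higher past it, at 1.32, beside 3.58% of all genes, and the other 9 genes lay between −0.45, for Loxl2, and 0.45, for Lox, whereas 48.8% of all genes were lower.

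Per read of the fibroblast markers the same genes were past 1.5-fold, with Ogn at −1.27 in KD-1 and Loxl1 at 1.36 in KD-2. S100a4 contributed most of the reads of that list, so this scale follows S100a4 more than any other marker. Of all genes 1.2% were lower and 43.6% higher for KD-1 on this scale, and 4.01% were higher and 46.1% lower for KD-2. Among the fibrillar collagens, Col3a1 held 54628 of the 94671 summed reads in control, so their scale follows Col3a1 more than any other gene. Per read of the fibrillar collagens, only Ogn of the 10 was lower in KD-1 past 1.5-fold (−0.72, beside 0.324% of all genes) and only Loxl1 was higher in KD-2 (0.88, beside 1.02%), while Bgn and Loxl2 were higher in KD-1 (beside 92.2%) and Loxl2 was lower in KD-2 (beside 75.2%). Per read of the smooth muscle markers the same genes were past it in the same directions, with Ogn at −0.71 and Loxl1 at 1.09, beside 0.318% of all genes lower and 92.5% higher for KD-1, and 1.79% higher and 63.9% lower for KD-2. On that scale 6 of the 10 genes were below control in KD-1 and 4 above, with a median of −0.05, beside 1.09 for all genes. Per read of the ES cell markers, 8 of the 10 genes were lower past 1.5-fold in KD-1, beside 7.86% of all genes. In KD-2, 9 of the 10 were higher past it on this scale, beside 39.8% of all genes. The medians of the 10 genes were −1.23 for KD-1 and 1.27 for KD-2, and those of all genes −0.09 and 0.44.

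Fibrillar collagens, the substrates to which these proteins bind, were lower in KD-1 for 6 of 9 genes (median −0.62). In KD-2 they were higher for 9 of 9 (0.87). For this list and those below, the shares of all genes were 5.62% lower and 8.63% higher in KD-1. The shares in KD-2 were 17.1% higher and 10.2% lower. Col1a1 and Col1a2, the chains of type I collagen, had 2391 and 3355 reads in control, 1915 and 1542 with KD-1, and 4450 and 5908 with KD-2. Col1a2 (−1.35) was past the threshold in KD-1 and Col1a1 (−0.55) was not. Col11a1, of the minor type XI collagen, was at −1.48 and 0.87, and Col5a1, which nucleates fibrils, at −0.15 and 1.58.

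Of genes that mature collagen, 2 of 20 were lower and 1 was higher in KD-1 (median −0.18), and 9 of 20 were higher in KD-2 (0.48). The collagen chaperone Serpinh1 was at −0.87 and 0.89. The procollagen C-proteinases Bmp1 and Tll1, of which Bmp1 also releases the active form of lysyl oxidase and processes biglycan, were at 0.04 and −0.72 in KD-1 and 0.94 and 0.82 in KD-2. Of genes that build the glycosaminoglycan chains of proteoglycans, KD-1 had 3 of 23 lower and 2 higher (median −0.05), and KD-2 had 12 of 23 higher (0.59). Csgalnact1 and Csgalnact2, which start chondroitin chains, were lower in KD-1 (−0.67 and −0.93), and the chondroitin polymerising factors Chpf and Chpf2 were higher in KD-2 (1.54 and 1.29). Dse, the epimerase that makes dermatan sulfate as carried by decorin and biglycan, was at −0.05 and 0.05.

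Lysyl oxidases need copper and a scaffold. Atp7a, the pump that loads copper onto secreted enzymes, had 3084, 4173 and 2855 reads, at 0.21 and −0.22, and none of the 5 copper genes listed was past the threshold in KD-1. Of the scaffold genes, Postn, which codes for periostin, a binding partner of Bmp1 in collagen crosslinking, had 6547 reads in control, 1902 with KD-1 and 11277 with KD-2 (−2.01 and 0.68). Eln, the elastin gene, had 83, 60 and 272 reads (−0.69 and 1.6). Efemp2, whose product tethers lysyl oxidase to tropoelastin, was at −0.65 and 0.87, and Fn1, fibronectin, at −0.08 and 0.53. In all, 4 of the 12 copper and scaffold genes were lower with KD-1 and 5 were higher with KD-2, with 1, the copper pump gene Atp7b (75, 93 and 50 reads), lower.

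TGF-β is the best known inducer of Lox and of several fibrillar collagens. Of 17 genes of this pathway, 2 were lower and 1 higher in KD-1 (median −0.10), and 10 were higher and 0 lower in KD-2 (0.70). The receptor gene Tgfbr2 had 5147 reads in control, 2280 with KD-1 and 9017 with KD-2 (−1.40 and 0.70). The ligand genes Tgfb1, Tgfb2 and Tgfb3 were at 0.06, −0.40 and −0.16 in KD-1 and at 1.16, 0.98 and 0.99 in KD-2.

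Among the other proteoglycan and lysyl oxidase relatives, 12 of 13 listed genes in the counts were tested, of which 3 were lower and 1 higher in KD-1 (median 0.03) and 7 were higher and 1 lower in KD-2 (0.62). Prelp and Epyc were lower in KD-1, as was Podn, which codes for podocan, with 161, 116 and 367 reads (−0.70 and 1.08). Loxl4, the remaining lysyl oxidase, had 2187, 2213 and 4328 reads (−0.21 and 0.88), higher in KD-2 only.

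Outside of these lists, the pattern of the 10 genes was looked for among 12734 other genes that averaged 100 reads or more, as the distance of a gene's pair of log2 fold changes from the pair of medians of the 10 genes. The 10 nearest were Stc1, Hopx, Spon2, Atp8b1, 5730409E04Rik, Gpr176, Abi3bp, Meox2, Maf and Mnda, at distances of 0.036 to 0.084 in log2 units. Stc1, the nearest, had 898 reads in control, 488 with KD-1 and 1730 with KD-2. Abi3bp, which codes for a matrix protein, had 1854, 952 and 3431. The 10 genes themselves lay between 0.067, for Loxl3, and 1.58, for Loxl2, from this pair, with a median of 0.439, and 172 other genes lay within that median. The measure uses 3 libraries, and its pair of values shares the control.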

How the data were processed

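RNA-Seq of 3 mouse ES cell libraries, 1 per condition, was analysed. According to the submitters' processing notes and the methods, total RNA was depleted of ribosomal RNA, and 50 bp single-end reads were trimmed with Trim Galore 0.4.1 and mapped with TopHat2 2.1.1 to mm10 (GRCm38). The counts per gene deposited by the authors are raw; the notes name HTSeq and the methods featureCounts as the counter, and the strand counted is not given in the sources used here. Reads off genes, 23.0% to 25.6% of a library, were left out.

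Counts were scaled with upper-quartile factors of edgeR 4.0.16 (0.960 to 1.08). Log2 fold changes used a pseudocount of 0.5 scaled reads, and a fold change above 1.5 among genes averaging 10 reads or more was called lower or higher, with no p-value. Levels were divided by exon lengths of GENCODE M21. Intervals are exact Clopper-Pearson. Both knockdowns against control were tested by quasi-likelihood in edgeR with TMM factors, on genes with a read, and with DESeq2 1.42.0. In data simulated for this comparison on 19813 genes with a dispersion of 0.01, edgeR recovered 192 of 200 genes changed 4-fold, with 5 false calls, and DESeq2 163, with 1. This checks the scripts and does not give the power for genes in which KD-1 and KD-2 differ more.

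Groups follow the shRNA in the sample titles. Genes were matched by official symbol, since Loxl2 is also an older name of Loxl3. The genes, the lists of related genes and markers and the alternatives were chosen with earlier results of these data known, and all 10 members are reported. Besides the 10 genes and Nup153, genes named were past the threshold in a knockdown, beside or around a member on the chromosome, or nearest in pattern. The Y-linked list was named in full, and Thy1, Fn1, Col1a1, Atp7a, Bmp1, Dse, Pou5f1, Nanog, Stc1 and Abi3bp among the list genes were picked for their role. R 4.3.3, Python 3.11.15, scipy 1.17.1 and pandas 2.3.3 were used.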

Additional observations from a re-analysis of the deposited data

Results flagged for a closer look

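In 7 of the 10 genes KD-1 and KD-2 lay beyond 1.5-fold on opposite sides of the same control library. The log2 fold change of KD-1 against KD-2 was −1.44 for Dcn, −2.25 for Lum, −2.30 for Fmod, −2.52 for Ogn, −2.24 for Aspn, −2.10 for Lox and −2.0 for Loxl3. With 1 library per knockdown this difference was not tested. Of all 16670 genes tested, 350 (2.1%) were lower past 1.5-fold in KD-1 and higher past it in KD-2, a count that shares the control library.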

How the results depend on the processing

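The counts of genes past the threshold were recomputed with TMM scaling, DESeq2's size factors, library totals, a pseudocount of 5 scaled reads, minimum means of 1 and 100 reads, a fold change of 2, and an upper-quartile scaling of genes averaging 10 reads or more, which was chosen after seeing the data. The number lower in KD-1 ranged from 6 to 8, with Loxl1 past the threshold (−0.61) under DESeq2's size factors, and that in KD-1 against KD-2 from 8 to 9. With a fold change above 2, the number in KD-2, in either direction and higher, was 1 in place of 9, and otherwise it was 8 or 9. No gene past the threshold changed sign; Bgn in KD-1, never past it, ranged from −0.05 to 0.03. Library totals gave the highest KD-2 values, such as 0.89 for Ogn and 2.02 for Loxl1, and the median of all genes was then 0.14. In the comparison of both knockdowns to control, 0 of the 10 genes were called under any setting, with p for Loxl1 between 0.00813 and 0.0151 by edgeR and 0.118 by DESeq2. Fmod, with 33 to 151 reads, is limited by depth. Leaving out a library was not possible with 1 per condition. No paired analysis was possible because each condition has 1 library.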
